A study of Mus musculus with 6 samples.

Results

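The 10 genes described here encode AF9 itself (Mllt3), its close relative ENL (Mllt1) and the proteins that work with them in transcription elongation (Aff1, Aff4, Ell, Ell2, Cdk9) and in histone H3 lysine methylation by DOT1L (Dot1l, Mllt10, Mllt6). They were taken by name from the deposited gene table, and all 10 were found among its 47593 rows. The RNA came from bone marrow cells of mouse femurs that had been selected for c-Kit, the receptor of early blood cells, which carried a retrovirus with an MLL-AF9 fusion and a neomycin resistance gene. All cultures were selected on G418 and passaged serially in methylcellulose with cytokines. In the E531R group (3 libraries) the AF9 part of the fusion carried the E531R substitution, and in the WT group (3 libraries) it was unchanged. The sources used here do not give strain, age, or whether the libraries came from separate cultures or animals, so p-values measure the spread between these libraries, which may be technical. The endogenous Mllt3 and Kmt2a genes were present in both groups beside the virus-carried fusion.

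AF9 and ENL read acylated histones through a YEATS domain and bind partner proteins through a disordered C-terminal domain that folds on contact. That domain takes up one partner at a time: AFF1 or AFF4, the scaffolds of the super elongation complex, DOT1L, or the repressors BCOR and CBX8. The elongation complex carries the kinase CDK9, which releases paused RNA polymerase II, and ELL proteins, which speed its movement. MLL fusions to AF9 bring this machinery to MLL target genes, and the series title names the loss of BCOR binding as the subject of the substitution.

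The coding sequence of that C-terminal domain is shown because AF9 shares it with ENL and because it holds the glutamate codons nearest to the number in the label. The lines give 90 coding bases of the mouse Mllt3 and Mllt1 transcripts (GENCODE M21, GRCm38, minus strand, intronic bases left out), with a pair of neighbouring glutamate codons in capitals. The Mllt3 stretch covers codons 518 to 547 of 569 and spans chr4:87774084-87782313, and the Mllt1 stretch covers codons 497 to 526 of 547 and spans chr17:56894528-56894693.
Mllt3: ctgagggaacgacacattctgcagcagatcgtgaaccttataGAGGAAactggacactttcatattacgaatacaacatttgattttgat
Mllt1: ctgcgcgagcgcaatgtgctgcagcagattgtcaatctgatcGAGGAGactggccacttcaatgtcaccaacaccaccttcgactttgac
In the mouse Mllt3 transcript the codon at the number in the label reads ATA, which is not a glutamate codon, and the glutamate pair lies at codons 532 and 533. Which species and transcript the label's numbering follows is not stated in those sources. The 2 stretches differed in 26 of 90 bases and in 22 of 30 codons, and 4 of those codons encode another residue. Over the last 80 codons of Mllt3, 73.4% of aligned residues were the same in Mllt1, against 57.2% over the whole aligned proteins.

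The E531R libraries held 23755210 to 33459668 reads in genes, and the WT libraries 14161139 to 30597351. WT replicate 3 stood apart: the SD of its log2 deviation from the other libraries of its group was 0.603 over the tested genes, against 0.194 to 0.389 for the other 5 libraries. That deviation ran with transcript GC content (Spearman rho 0.62 across genes) and against transcript length (rho -0.29), so results are also given without this library. Of the markers of other cell types, 8 of 8 tested neutrophil genes, 6 of 6 monocyte genes and 3 of 3 megakaryocyte genes were higher in E531R cells. The summed normalised counts of the 8 neutrophil markers were 67772 to 75296 in E531R libraries and 6446 to 8728 in WT libraries. Those of the 8 monocyte markers were 19451 to 20856 in E531R libraries and 4905 to 5639 in WT libraries. The 6 megakaryocyte markers summed to 426 to 467 in E531R libraries and 91.0 to 124 in WT libraries. Vwf made up most of these sums, with means of 355 in E531R and 85.9 in WT cells. Pf4, Gp9 and Gp1bb also had higher means in E531R cells. Itga2b had 5.79 and 5.59, and Ppbp had 4 reads in all libraries together. All 6 blood and progenitor markers were present, among them Kit and the pan-leukocyte gene Ptprc, and 3 of the 6 were higher and 0 lower. Kit and Myb had lower means in E531R cells, at 3335 and 8303 against 3587 and 10528 in WT cells. Cd34, Spi1, Mpo and Ptprc had higher means, at 1014, 8345, 137250 and 6044 against 505, 5606, 93563 and 5357. Of 5 stroma and endothelium markers 2 were tested. Pecam1 was lower, with means of 1460 in E531R and 5850 in WT cells. Col1a1 had a higher mean in E531R cells, at 17.4 against 6.22, and did not pass. Cdh5 and Col1a2 had 4 and 1 reads in all libraries together, so Pecam1 made up nearly all counts of this list. None of the 1 erythroid and 1 B cell marker tested passed, and 0 of 5 T cell markers reached the minimum mean. Hba-a1, Ms4a1, Cd3e, Cd4, Cd8a and Cxcl12, markers of red cells, lymphocytes and stroma, had 0 reads in every library. In bulk samples fewer cells of a type and less RNA per cell cannot be told apart.

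Values are read counts that the authors divided by 1 size factor per library, called normalised read counts. Log2 fold changes are of E531R over WT on the log2(value + 1) scale from limma, fitted over the 12991 genes whose mean reached 10. Benjamini-Hochberg adjustment ran over all of them, with a threshold of 0.05.

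Among the AF9 partners Mllt6 fell, Aff1 rose slightly, and the remaining 8 did not pass the test. That is 1 of 10 higher and 1 of 10 lower, against 10.4% higher and 9.53% lower (19.9% in all) among all tested genes, so the share of members called was near that of all genes. The median log2 fold change of the 10 members was 0.03, and that of all tested genes was 0.01. The values of the groups did not overlap in 3 of the 10, Aff1 and Aff4 higher and Mllt6 lower, against 44.0% of all tested genes (21.2% higher and 22.8% lower). With edgeR on the recovered reads the members again had 1 higher and 1 lower, against 20.4% of all genes called. In the authors' deposited table Mllt6 alone of the 10 passed, where 15.4% of 16596 genes did. All 10 passed the minimum mean, and only Mllt3 had a mean under 100.

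**Figure D1:**
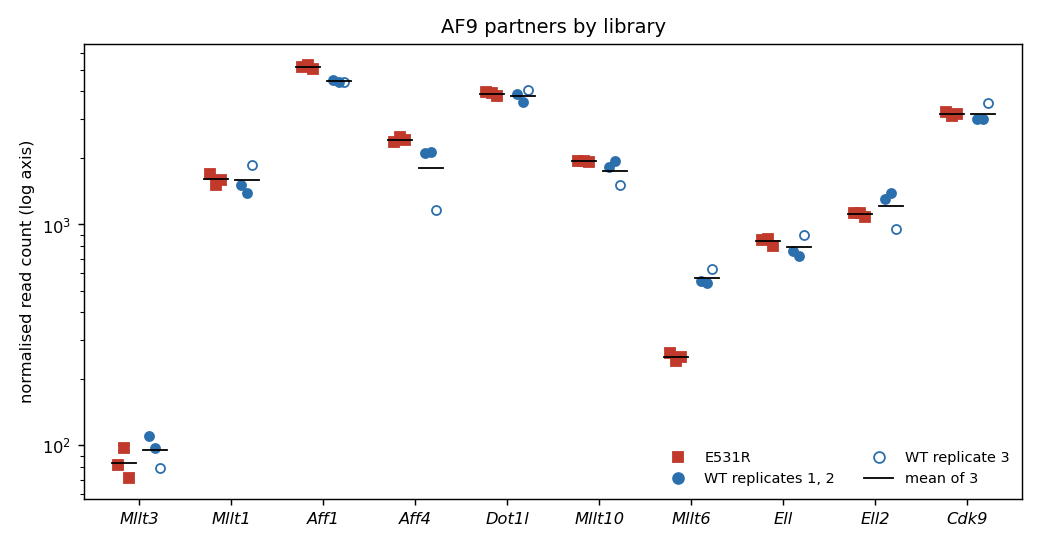
The log y axis gives the normalised read count of the 10 genes, with 1 point per library (red squares E531R, filled blue circles WT replicates 1 and 2, open blue circles WT replicate 3) and a bar at the mean of 3 libraries. The Mllt6 values lie between 242 and 263 in E531R libraries and between 541 and 627 in WT libraries, and WT replicate 3 lies away from the other WT libraries in Aff4 and Ell2.

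The DOT1L complex comprises the methyltransferase DOT1L and the paralogous cofactors AF10 (Mllt10) and AF17 (Mllt6), which bind it through a leucine zipper. Mllt6 (chromosome 11, 97663414 to 97685463, plus strand, GRCm38) had 263, 242 and 252 normalised counts in the E531R libraries, against 552, 541 and 627 in the WT libraries. Every E531R value was below every WT value, and the spread within either group was small beside the gap. The mean was 253 ± 10.5 in E531R cells and 574 ± 47.1 in WT cells (SD, n = 3 each), 2.27-fold lower. The log2 fold change was -1.18 (SE 0.093; limma adjusted p = 0.000198), with a 95% interval of -1.40 to -0.96. Of all tested genes 3.84% had a lower log2 fold change. The Mllt6 call held in every alternative that was run, with log2 fold changes of -1.22 to -1.09. In the authors' deposited table its log2 fold change was -1.14 (adjusted p = 2.97e-14), with the sign turned to E531R over WT. The higher neutrophil, monocyte and megakaryocyte markers given above accompany this difference, and their part in it was not tested.

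Dot1l, the methyltransferase itself, had 3969, 3923 and 3800 normalised counts in E531R libraries and 3877, 3572 and 4049 in WT libraries. The groups overlapped. Its log2 fold change was 0.03 (limma adjusted p = 0.824), and the 95% interval of -0.14 to 0.20 corresponds to 0.905-fold to 1.15-fold. Mllt10, the AF10 cofactor, had 1932, 1935 and 1922 in E531R libraries and 1817, 1935 and 1504 in WT libraries. WT replicate 3 was the lowest value, and the log2 fold change of 0.15 did not pass (95% interval -0.09 to 0.39; limma adjusted p = 0.367). Without that library it was 0.04 (limma adjusted p = 0.455). Mllt10 shares 749 exon bases with Dnajc1 on the opposite strand, and no source used here says whether the counting used strand.

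Mllt10 and Mllt6 were also compared within each library as a log2 ratio of values per kilobase of annotated exon, which no size factor can change. The ratio was 3.21, 3.33 and 3.27 in E531R libraries and 2.05, 2.17 and 1.60 in WT libraries, so the groups did not overlap. Mllt10 was thus 9.64-fold the level of Mllt6 per kilobase in E531R cells and 3.84-fold in WT cells. The difference was 1.33 (exact two-sided permutation test, p = 0.1, the smallest that 3 against 3 libraries allow, and 0.4 adjusted over 4 paralogue pairs).

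Mllt6 lies in a cluster of coding genes on chromosome 11, and the genes next to it on both sides also fell. All 9 coding genes within 100 kb of it that have a row were looked at, after values of some of them were known. Epop (row name E130012A19Rik), which encodes a partner of Polycomb complex 2 and lies 33712 bases before Mllt6, had 879, 693 and 718 in E531R libraries and 1501, 1413 and 2335 in WT libraries. The log2 fold change was -1.17 (SE 0.20; limma adjusted p = 0.00702). Cisd3, a mitochondrial iron-sulphur protein whose gene starts 363 bases after the end of Mllt6, had 173, 160 and 186 in E531R libraries and 342, 302 and 409 in WT libraries. Its log2 fold change was -1.01 (SE 0.14; limma adjusted p = 0.00218). Pcgf2, a ring finger subunit of canonical Polycomb complex 1, had 133, 132 and 139 in E531R libraries and 270, 243 and 233 in WT libraries (log2 fold change -0.87, SE 0.10; limma adjusted p = 0.00111). In all 3 neighbours every E531R value was below every WT value. These 3 calls held in every alternative in which the gene was fitted.

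Farther along the chromosome no gene passed over all 6 libraries. The proteasome gene Psmb3, 17936 bases after Mllt6, had a log2 fold change of -0.25 (limma adjusted p = 0.28). Pip4k2b, Cwc25 and Rpl23 had 0.11, 0.18 and -0.05, and none passed (limma adjusted p = 0.486, 0.157 and 0.65). Without WT replicate 3, Pip4k2b and Cwc25 were higher, with log2 fold changes of 0.22 each (limma adjusted p = 0.000369 and 0.00395), and Cwc25 also passed with a GC and length trend removed (0.18; limma adjusted p = 0.0479). Srcin1 and 1700001P01Rik lay under the minimum mean.

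**Figure D2:**
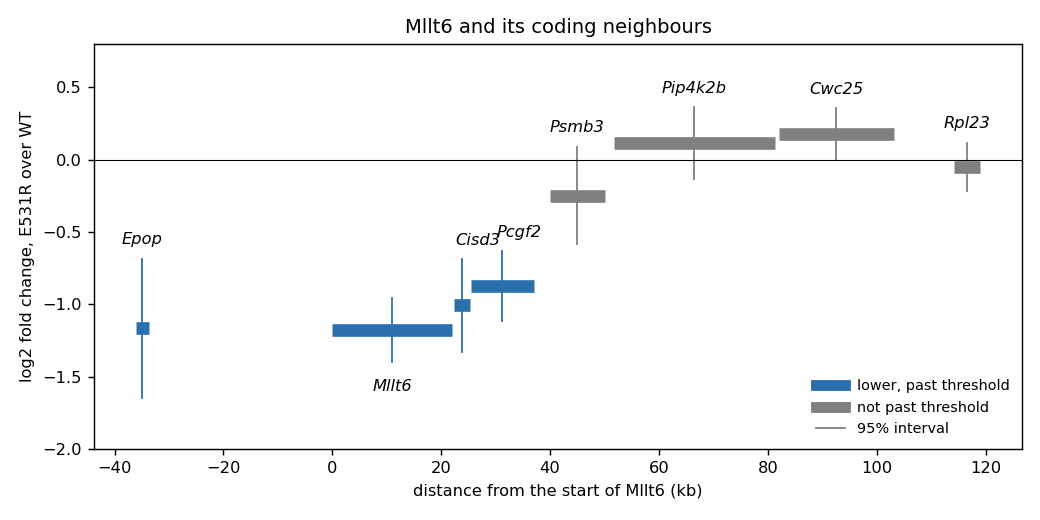
Each bar spans a coding gene with a tested row around Mllt6, with distance from the start of Mllt6 in kb on the x axis and log2 fold change (E531R over WT) on the y axis, and with its 95% interval as a thin line; blue bars passed the threshold and grey bars did not. Epop, Mllt6, Cisd3 and Pcgf2 lie between -1.18 and -0.87, and the genes from Psmb3 on lie between -0.25 and 0.18.

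The promoters of Mllt6 and Pcgf2 are shown because these neighbours fell together. Each line gives 250 bases before to 50 after a gene start (RefSeq, GRCm38.p6), Mllt6 at chr11:97663162-97663461 on the plus strand and Pcgf2 at chr11:97699599-97699898 on the minus strand. Both strands were searched for the TATA box letters TATAAA, for the E box letters CACGTG and for a CCAAT box. Capitals mark the only match found in these windows.
Mllt6: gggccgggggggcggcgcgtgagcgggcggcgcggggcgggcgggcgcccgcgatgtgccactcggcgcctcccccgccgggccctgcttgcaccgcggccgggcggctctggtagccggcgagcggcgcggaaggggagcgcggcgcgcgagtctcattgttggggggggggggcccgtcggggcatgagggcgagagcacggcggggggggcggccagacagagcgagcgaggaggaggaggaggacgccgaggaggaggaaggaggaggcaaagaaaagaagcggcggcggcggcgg
Pcgf2: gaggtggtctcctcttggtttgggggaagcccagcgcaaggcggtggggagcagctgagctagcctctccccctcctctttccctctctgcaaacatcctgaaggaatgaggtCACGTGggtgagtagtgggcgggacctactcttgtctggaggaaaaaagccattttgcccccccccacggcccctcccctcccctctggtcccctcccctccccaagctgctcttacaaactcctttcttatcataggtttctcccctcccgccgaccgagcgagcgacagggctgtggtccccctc
The Mllt6 window had none of the motifs and 46 CpG dinucleotides, at percentile 98.35 of all promoter windows, where the median was 7. This was not particular to Mllt6. Windows of the other members ran from 4 (Mllt3) to 49 (Dot1l) CpG dinucleotides, with 46 for Mllt1 and 44 for Aff4. The windows of Dot1l, Ell and Aff1 also held none of the motifs. The Pcgf2 window had 1 E box and 10 CpG dinucleotides. The windows of Cisd3, which also fell, are not shown. They had 8 and 33 CpG dinucleotides and none of the motifs. No window was found under the name of Epop, which also fell. Of all 32851 promoter windows, 13.6% held the TATA box letters, 7.15% the E box and 37.4% the CCAAT box. All 10 AF9 partners had a promoter in RefSeq, with 14 windows in all, and 0 of the 14 held the TATA box letters.

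The elongation scaffolds AFF1 and AFF4 hold the super elongation complex together. Aff1 (chromosome 5, 103692374 to 103855322) had 5187, 5287 and 5065 normalised counts in E531R libraries, against 4522, 4411 and 4403 in WT libraries. All E531R values were higher, and both groups were tight. The mean was 5180 ± 111 in E531R cells and 4446 ± 66.6 in WT cells (SD, n = 3 each), 16.5% higher. Its log2 fold change was 0.22 (SE 0.060; 95% interval 0.08 to 0.36; limma adjusted p = 0.0429), just past the threshold. The call was lost in 8 of 17 alternatives, among them leaving out WT replicate 1 or 2 (limma adjusted p = 0.107 and 0.104) and E531R replicate 1, 2 or 3 (0.185, 0.206 and 0.126). The log2 fold change stayed between 0.18 and 0.24 in all 17. In the authors' deposited table Aff1 did not pass (adjusted p = 0.132).

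Aff4, the other scaffold, had 2366, 2477 and 2417 normalised counts in E531R libraries, against 2096, 2129 and 1168 in WT libraries. WT replicate 3 was at 55.3% of the mean of the other WT libraries, a deviation of -0.85 on the log2 scale that 10.8% of tested genes went below. Over all 6 libraries the log2 fold change was 0.48 with a wide 95% interval of -0.06 to 1.02 (limma adjusted p = 0.195). Without WT replicate 3 it was 0.20 with an interval of 0.11 to 0.28 (limma adjusted p = 0.000732). Aff4 also passed once a trend with GC and length was taken out of each library (0.35; limma adjusted p = 0.0387).

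The balance of the scaffolds differed by less than the spread between WT libraries. The log2 ratio of Aff1 to Aff4 per kilobase was 1.64, 1.60 and 1.58 in E531R libraries and 1.62, 1.56 and 2.42 in WT libraries. The WT value of 2.42 was that of replicate 3. The difference was -0.26 (exact permutation test, p = 0.8, adjusted 0.8), and 0.018 without that library.

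**Figure D3:**
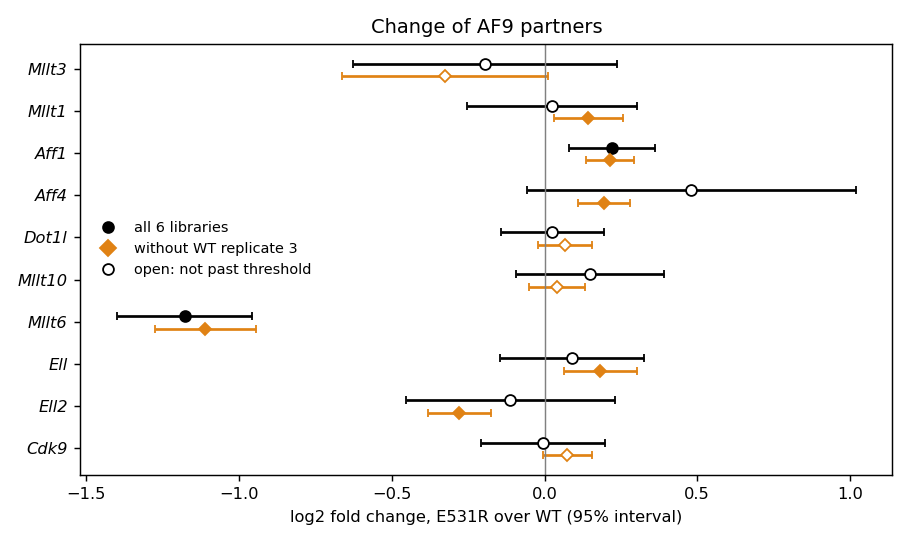
Log2 fold change of E531R over WT (x axis) with its 95% interval for the 10 genes (y axis), over all 6 libraries (black circles) and without WT replicate 3 (orange diamonds); filled symbols passed the threshold. Mllt6 lies at -1.18 and -1.11, while the other genes lie between -0.33 and 0.48 and have narrower intervals without WT replicate 3.

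ELL and ELL2 are the elongation factors of the complex. Ell had 854, 861 and 803 in E531R libraries and 757, 722 and 897 in WT libraries, with overlapping groups and a log2 fold change of 0.09 (95% interval -0.15 to 0.33; limma adjusted p = 0.569). Ell2 had 1126, 1127 and 1084 in E531R libraries and 1307, 1393 and 953 in WT libraries, and its log2 fold change of -0.11 did not pass either (95% interval -0.45 to 0.23; limma adjusted p = 0.624). WT replicate 3 was the highest WT value of Ell and the lowest of Ell2. Without it Ell was higher, at 0.18 (limma adjusted p = 0.014), and Ell2 lower, at -0.28 (limma adjusted p = 0.000177). Once the trend with GC and length was taken out, the values were 0.21 and -0.37 (limma adjusted p = 0.0275 and 0.0149). The log2 ratio of Ell to Ell2 per kilobase was 1.26, 1.27 and 1.23 in E531R libraries and 0.87, 0.71 and 1.57 in WT libraries. The difference was 0.20, and these groups overlapped through WT replicate 3 (exact permutation test, p = 0.4, adjusted 0.667). Without that library it was 0.46 and the groups were apart (exact permutation test, p = 0.2, the smallest that 3 against 2 libraries allow). The difference was 0.11 and 0.032 without WT replicates 1 and 2. Ell2 shares 94 exon bases with the antisense gene 1700037F03Rik and 130 with a small nucleolar RNA gene.

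Cdk9, the kinase of P-TEFb, had the highest level per kilobase of the 10 genes and did not pass. It had 3224, 3086 and 3146 normalised counts in E531R libraries and 2993, 2992 and 3534 in WT libraries. Its log2 fold change was -0.01 with a 95% interval of -0.21 to 0.20, which is 0.866-fold to 1.15-fold (limma adjusted p = 0.974). Without WT replicate 3 it was 0.07 (limma adjusted p = 0.122).

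AF9 and ENL are alternative readers in these complexes. Mllt3 had 81.3, 97.3 and 71.1 normalised counts in E531R libraries, from 117, 100 and 73 reads, and 110, 97.6 and 78.7 in WT libraries, from 69, 85 and 100 reads. The groups overlapped. The exact Poisson 95% interval of a single library, for counting error only, ran from 67.2 to 97.4 in E531R replicate 1 and from 85.7 to 139 in WT replicate 1. The log2 fold change was -0.19 (limma adjusted p = 0.498), and its 95% interval of -0.63 to 0.24 allows a level between 0.648-fold and 1.18-fold. It was -0.33 without WT replicate 3 and -0.43 with GC and length taken out (95% interval -0.81 to -0.05), and did not pass in either (limma adjusted p = 0.106 and 0.083). Without WT replicate 1 it was -0.086, and without E531R replicates 2 and 3 it was -0.31 and -0.088. Reads of the viral fusion that match Mllt3 cannot be told apart from those of the endogenous gene.

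Mllt1 had 1692, 1512 and 1593 in E531R libraries and 1507, 1387 and 1850 in WT libraries, with WT replicate 3 the highest of the 6. Its log2 fold change was 0.03 (95% interval -0.25 to 0.30; limma adjusted p = 0.898). Without WT replicate 3 it was 0.14 and passed (limma adjusted p = 0.0365), while 0.15 did not pass once the GC and length trend was taken out (limma adjusted p = 0.0797).

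Per kilobase of annotated exon, Mllt1 stood far above Mllt3 in every library. The log2 ratio of Mllt3 to Mllt1 was -5.99, -5.57 and -6.10 in E531R libraries and -5.39, -5.44 and -6.17 in WT libraries. Mllt1 was thus 59.3-fold Mllt3 in E531R cells and 50.8-fold in WT cells. The difference was -0.22, and the groups overlapped (exact permutation test, p = 0.5, adjusted 0.667). It was -0.47 without WT replicate 3, where the groups no longer overlapped (exact permutation test, p = 0.2, the smallest that 3 against 2 libraries allow). The difference was -0.083 and -0.11 without WT replicates 1 and 2. Without E531R replicates 2 and 3 it was -0.38 and -0.12. Exon length here joins the exons of all annotated transcripts, 12004 bases for Mllt3 and 3918 for Mllt1, so a gene with rarely used exons is set too low.

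**Figure D4:**
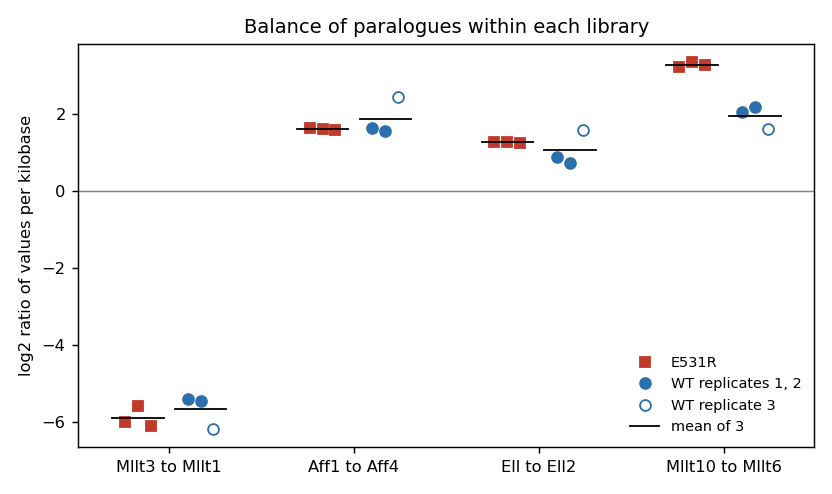
Log2 ratio of normalised counts per kilobase of exon between paralogues (y axis) for 4 pairs (x axis), with 1 point per library (red squares E531R, filled blue circles WT replicates 1 and 2, open blue circles WT replicate 3) and a bar at the mean of 3. The groups are apart in Mllt10 to Mllt6, at 3.21 to 3.33 in E531R libraries and 1.60 to 2.17 in WT libraries, and overlap in the other pairs.

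The order of the 10 genes by mean level per kilobase was the same in both groups: Cdk9, Aff1, Dot1l, Mllt1, Mllt10, Ell, Aff4, Ell2, Mllt6 and Mllt3. In E531R cells the levels ran from 684 ± 15.1 per kilobase for Cdk9 to 33.9 ± 1.41 for Mllt6 and 6.93 ± 1.10 for Mllt3. In WT cells they ran from 688 ± 67.8 for Cdk9 to 77.0 ± 6.32 for Mllt6 and 7.95 ± 1.32 for Mllt3 (SD, n = 3 each). Every E531R library of a gene lay above every E531R library of the next. In WT cells the ranges of Aff1 and Mllt1, of Dot1l and Mllt1, of Mllt10 and Ell, and of Aff4 and Ell2 overlapped.

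Genes whose profile over the 6 libraries was most like that of a called member were found by Euclidean distance of centred log2 values. For Mllt6 they were Slco3a1, Bambi and Ogdhl, at distances of 0.093, 0.15 and 0.155. Slco3a1, an organic anion transporter, had 534, 504 and 507 normalised counts in E531R libraries and 1153, 1118 and 1212 in WT libraries. Those nearest to Aff1 were Vps13d, Lbr and Arhgef3, at distances of 0.022, 0.031 and 0.034. Lbr, the lamin B receptor, had 9105, 9179 and 9009 in E531R libraries and 7873, 7794 and 7786 in WT libraries.

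In the wider set of elongation, DOT1L and MLL genes only Bcor and Ash2l passed over all 6 libraries. Of 48 genes in 9 lists, 45 were tested, 2 rose and 0 fell, where 10.4% and 9.53% of all tested genes did. At an unadjusted p under 0.05 there were 7 of the 45, against 4245 of all 12991 genes, and edgeR and DESeq2 also called 2 higher and 0 lower. The median log2 fold change of the 45 was 0.02, against 0.01 for all genes. Without WT replicate 3, 6 were higher and 8 lower, where 24.3% and 23.1% of all genes were (47.4% in all), and the members then had 4 higher and 2 lower.

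Bcor, the corepressor that competes for the AF9 C-terminal domain, was 1 of the genes that rose. It had 7339, 7467 and 7105 normalised counts in E531R libraries and 4899, 4621 and 5212 in WT libraries (log2 fold change 0.57, SE 0.071; limma adjusted p = 0.00153). Cbx8, the Polycomb reader that binds the same domain, had a log2 fold change of 0.10 (limma adjusted p = 0.614). Ash2l, a core subunit of MLL complexes, had 6296, 6186 and 6609 in E531R libraries and 4353, 4278 and 4612 in WT libraries. Its log2 fold change was 0.53 (SE 0.066; limma adjusted p = 0.00162), but taking out the GC and length trend gave 0.38, which did not pass (limma adjusted p = 0.0863). The other 7 MLL genes did not pass. They ranged from -0.33 for Men1, which encodes the MLL cofactor menin, to 0.31 for Psip1, and Hcfc1, the highest in counts not divided by length, had 0.03 (limma adjusted p = 0.123, 0.453 and 0.849). The Psip1 value was -0.016 without WT replicate 3. Men1 passed as lower without that library (-0.18; limma adjusted p = 0.00198) and with GC and length taken out (-0.22; 0.0314). Kmt2a, the MLL gene, had 5375, 5625 and 4640 in E531R libraries and 5598, 5638 and 3385 in WT libraries, with the same limit from the fusion's reads as Mllt3.

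None of 8 tested further elongation subunits passed, with a median log2 fold change of 0.05. The cyclins of CDK9, Ccnt1 and Ccnt2, had 0.04 and 0.31 (limma adjusted p = 0.877 and 0.578), and in Ccnt2 WT replicate 3 had 607 normalised counts against 1480 and 1584 in the other WT libraries. Without that library both were negative, Ccnt1 at -0.14, which passed as lower (limma adjusted p = 0.015), and Ccnt2 at -0.13, which did not (0.105). Aff3, Ell3 and Eaf2 lay under the minimum mean. In the 7SK particle, which holds P-TEFb inactive, 0 of 4 passed, and Hexim1 had 0.11 (limma adjusted p = 0.264) with groups that did not overlap. It passed as higher without WT replicate 3 (0.12; limma adjusted p = 0.0166) and with GC and length taken out (0.16; 0.0295). Among the pausing factors 0 of 7 passed, and the elongation factor gene Supt6 had 0.01 (limma adjusted p = 0.896).

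In the PAF1 complex, which travels with elongating polymerase, 0 of 6 passed. Ctr9, its highest member in counts not divided by length, had 2964, 3007 and 2986 in E531R libraries and 3418, 3317 and 3382 in WT libraries. Those groups did not overlap, but the log2 fold change of -0.18 missed the threshold (limma adjusted p = 0.0815), and passed without WT replicate 3 (-0.17; limma adjusted p = 0.00111). Paf1 and Wdr61 were also lower without overlap of the groups, as were 22.8% of all tested genes, and Leo1, Cdc73 and Rtf1 overlapped. Without WT replicate 3 Paf1 passed as lower (-0.15, limma adjusted p = 0.00691) and Wdr61 did not (-0.11, limma adjusted p = 0.0756). Of the 5 H2B ubiquitin writers, which act ahead of DOT1L, 0 passed, and Rnf40 had -0.08 (limma adjusted p = 0.579). None of 3 further proteins reported with DOT1L passed either, with Ctnnb1, which encodes beta-catenin, at -0.01 (limma adjusted p = 0.91). Skp1a, a ubiquitin ligase subunit gene, had -0.21 with groups that did not overlap (limma adjusted p = 0.0669). It passed as lower without WT replicate 3 (-0.22; limma adjusted p = 0.000392), with GC and length taken out (-0.32; 0.0147) and with upper-quartile rescaling (-0.25; 0.0463). Yeats2 and Yeats4, other genes with the YEATS domain, had 0.07 and -0.06 (limma adjusted p = 0.536 and 0.644).

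**Figure D5:**
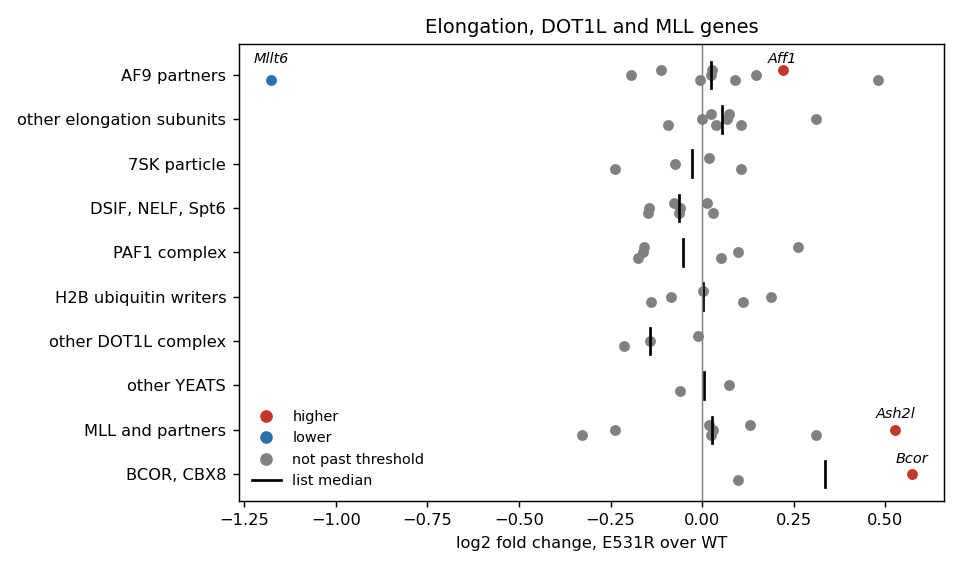
Each point is a tested gene of the AF9 partners or of 1 of 9 related lists (y axis), with the log2 fold change (E531R over WT, all 6 libraries) along the x axis; red marks genes called higher, blue lower and grey neither, and a black bar is the median of a list. Mllt6 at -1.18, Ash2l at 0.53 and Bcor at 0.57 lie beyond the other genes, which range from -0.33 to 0.48.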

How the data were processed

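RNA-seq values of 3 E531R and 3 WT libraries were grouped by sample titles. The submitters' processing notes name the build GRCm38 and the tools HISAT2, featureCounts, DESeq2, cutadapt, FastQC and SAMtools. No source used here gives versions, annotation or strand setting. The deposited values (unit signal) are read counts that the authors divided by 1 size factor per library, and 100% of them came out as whole reads within 0.001. Beside them, per the file headers, stand the authors' own log2 fold changes and adjusted p-values, and a deposited Wald statistic, a score. Their sign was turned to E531R over WT. Size factors would hide a shift shared by all genes.

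The main test was limma 3.58.1 (R 4.3.3) on log2(value + 1), two-sided, with the prior variance following mean intensity and a minimum mean of 10. Other settings tried were pseudocount 0.5 or 10, minimum mean 50 or none, TMM and upper-quartile rescaling, edgeR 4.0.16, DESeq2 1.42.0 and voom on recovered reads, a replicate block and leaving out each library. From the recovered reads edgeR found 1393 genes higher, and 1251 lower. A further setting, chosen after seeing the data, took a trend with GC and length out of each library (96.6% of tested genes had both). Tests were tried on simulated data. Exact tests used scipy 1.17.1.

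Members and lists were chosen with earlier results of these data known. Named genes are all members, list genes past the threshold, the gene of each list with the highest normalised count, and the 3 nearest profiles of each called member. Some genes that this rule names are not reported here. Further list genes, and the neighbours of Mllt6, were named after their values were seen. GENCODE M21 (GRCm38, as in the submitters' notes) gave positions and lengths for 45151 rows by symbol. Neighbours were matched by RefSeq synonyms too.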

Additional observations from a re-analysis of the deposited data

How the results depend on the processing

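Without 1 library at a time, all genes had 819 to 3159 higher and 746 to 2999 lower, the highest counts without WT replicate 3. Without E531R replicate 1, 2 or 3 the counts were 819, 831 and 842 higher and 746, 752 and 789 lower. Members had 0 to 4 higher and 1 to 2 lower, and pathway genes 2 to 6 higher and 0 to 8 lower, the upper ends again without WT replicate 3. The 4 higher members without that library were Aff1, Aff4, Ell and Mllt1, and the 2 lower ones Mllt6 and Ell2. The Aff1 call, and with it the count of 1 higher member, went to 0 with no filter on low values (limma adjusted p = 0.101), with upper-quartile rescaling (0.108) and with the replicate block (0.11). Upper-quartile rescaling, which moved the median log2 fold change of all genes to -0.03, called 1 pathway gene lower (Skp1a, -0.25). With the GC and length trend removed, 1972 of 12544 tested genes were higher and 1971 lower. The 10 members then had 3 higher and 2 lower, and the 45 tested pathway genes 3 higher and 4 lower. The difference in the Aff1 to Aff4 ratio ran from -0.41 without WT replicate 2 to 0.018 without WT replicate 3, where its sign turned. The ratio of Mllt10 to Mllt6 differed by 1.16 to 1.44 over all alternatives. The deviations of same-numbered libraries correlated at 0.002, 0.19 and 0.24, and not every library correlated best with its own number. The numbers were not taken as pairs, and the block gave 1179 genes higher and 1062 lower. It changed no call among the members, Ash2l, Bcor and the neighbours of Mllt6 named as lower, apart from Aff1. Mllt3, with 69 to 117 reads a library, is the member where depth limits precision the most.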
